A study of Homo sapiens with 8 samples.

Results

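Kinesins are motor proteins that use ATP to move along microtubules or to take microtubules apart, and their genes were followed here in LX-2 cells, a line of human hepatic stellate cells with features of activated, matrix-producing cells. The members were the genes whose symbol is KIF followed by a number and optional letters and that reached a total of 10 or more counts over the 8 libraries. This gave 33 genes among the 14895 genes fitted. KIFAP3 and KIFBP, which are partner proteins and not motors, were left out, the latter also under its older symbol KIF1BP. Of 36 rows with such a symbol, KIF4B (total 3.01 counts), KIF25 (2 counts) and KIF1A (1 count) did not reach the minimum.

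The 4 Control libraries came from LX-2 cells given DMSO as vehicle, and the 4 OGTi libraries from LX-2 cells given 50 µM OSMI-1, a small molecule that inhibits O-GlcNAc transferase (OGT), for 24 h. All cells grew in DMEM with 5% serum, and no allele or transgene distinguished the groups. OGT attaches the sugar O-GlcNAc to proteins of the nucleus and the cytoplasm. Replicates are labelled as biological replicates, and LX-2 is a single established line, so the spread is that between cultures of this line. The libraries held 24166756 to 28201215 counts, and no 2 of one group were alike within counting noise (chi-square per degree of freedom 8.66 to 36.2). VIM, from the list of stellate cell and myofibroblast markers, was high, at 95086 ± 8983 normalized counts in Control. Its level alone does not identify stellate cells. DES, an intermediate filament gene, and LRAT, of retinoid storage, are both used to define stellate cells. They had only 20 and 13.49 counts over all 8 libraries. The other markers of the list were higher in Control, at 84778 normalized counts for COL1A1, 29724 for TAGLN and 12613 for TIMP1. COL1A2 had 7891, COL3A1 5102.5, PDGFRB 2280 and ACTA2 717.

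A dividing cell and a resting cell use different kinesins. Mitotic kinesins push spindle poles apart, align chromosomes, remove tubulin from microtubule ends and build the midzone on which the cell cleaves. They are made mostly in G2 and M phase. Transport kinesins carry vesicles, organelles and RNA outwards along microtubules throughout interphase, and are also used by cells that no longer divide. Further kinesins act at the primary or motile cilium. By these known roles the 33 genes were sorted into 11 mitotic, 12 transport, 5 cilium and 5 other kinesins.

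Genes of G2 and M phase often share a pair of short promoter motifs. The CHR element is bound by the DREAM complex and by B-MYB and FOXM1 complexes, and the CCAAT box is bound by NF-Y. CHR was taken here as TTTGAA or TTTAAA, and other variants of the element were not searched. Both motifs were searched on both strands, so that TTCAAA and ATTGG also count. The search covered RefSeq promoter windows of 300 bases on GRCh38.p14, 250 before and 50 from the annotated start. TTTAAA reads the same on both strands and was counted once, and matches of the different motifs may share letters at their ends. A window was found for 28 of the 33 kinesins. The 100 bases before the start are printed 5′ to 3′ on the gene's strand for genes with each arrangement of the motifs, with CHR and CCAAT letters in capitals. KIF20A, KIF23, KIF11, KIF18A and KIF4A have both motifs there.

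KIF20A, chr5:138179012-138179111, plus strand: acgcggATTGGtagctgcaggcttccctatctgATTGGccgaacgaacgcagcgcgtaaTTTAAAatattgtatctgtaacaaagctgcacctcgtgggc
KIF23, chr15:69414249-69414348, plus strand: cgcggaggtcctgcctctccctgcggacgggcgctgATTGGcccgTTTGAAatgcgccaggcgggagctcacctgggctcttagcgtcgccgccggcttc
KIF11, chr10:92593030-92593129, plus strand: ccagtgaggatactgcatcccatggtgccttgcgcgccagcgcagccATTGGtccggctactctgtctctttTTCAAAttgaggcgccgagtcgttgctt
KIF18A, chr11:28108157-28108256, minus strand: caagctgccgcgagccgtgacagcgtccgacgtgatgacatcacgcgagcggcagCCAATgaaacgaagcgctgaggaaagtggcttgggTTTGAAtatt
KIF4A, chrX:70290004-70290103, plus strand: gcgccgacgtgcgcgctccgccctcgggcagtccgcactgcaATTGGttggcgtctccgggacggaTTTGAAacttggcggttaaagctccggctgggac

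KIF15 is shown as a mitotic kinesin with a CHR element and no CCAAT box. KIF22 is shown as the mitotic kinesin with a CCAAT box and no CHR letters of the forms searched.

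KIF15, chr3:44761694-44761793, plus strand: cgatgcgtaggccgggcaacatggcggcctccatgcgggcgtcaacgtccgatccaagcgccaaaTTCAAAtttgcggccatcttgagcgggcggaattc
KIF22, chr16:29790651-29790750, plus strand: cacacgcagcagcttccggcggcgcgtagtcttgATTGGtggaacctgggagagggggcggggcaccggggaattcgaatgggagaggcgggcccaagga

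KIF1C and KIF3B are shown as transport kinesins, the former with neither motif and the latter with a CCAAT box alone.

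KIF1C, chr17:4997850-4997949, plus strand: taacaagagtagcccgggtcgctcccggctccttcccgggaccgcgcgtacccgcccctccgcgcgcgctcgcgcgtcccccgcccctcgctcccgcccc
KIF3B, chr20:32277551-32277650, plus strand: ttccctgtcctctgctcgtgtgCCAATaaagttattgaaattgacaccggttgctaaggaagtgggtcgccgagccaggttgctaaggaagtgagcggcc

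CHR letters were found in the 300-base windows of 10 of 11 mitotic kinesins (90.9%). They were found in 2 of the 10 transport kinesins with a window (20%), in 0 of 4 cilium kinesins and in 0 of 3 other kinesins. Among all 27305 genes with a window the share was 27.9%. The CCAAT letters were in 9 of 11 mitotic kinesins (81.8%), in 4 of 10 transport kinesins (40.0%) and in 39.7% of all genes. In the 10 mitotic kinesins that held them, CHR letters lay close to the start. They began 28 bases before it in KIF11, 35 in KIF15, 34 in KIF4A, 41 in KIF20A, 10 in KIF18A and 3 in KIF2C. In KIF18B, KIF20B and KIF14 a match began 1 to 30 bases after the start, and KIF23 and KIF14 had a further match 211 and 198 bases before it. In the transport kinesins KIF5B and KIF16B they began 140 and 241 bases before the start. With the stretch narrowed to the 100 bases before the start and the 50 from it, a choice made after the positions were seen, CHR letters were in 10 of 11 mitotic kinesins, in 0 of 10 transport kinesins and in 13.6% of all genes. Both motifs together were within that stretch in 8 of 11 mitotic kinesins (72.7%) and in 3.44% of all genes. KIF24, a cilium kinesin, had 3 CCAAT boxes and no CHR letters. A letter match is a description of the window and not a bound site.

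**Figure D1:**
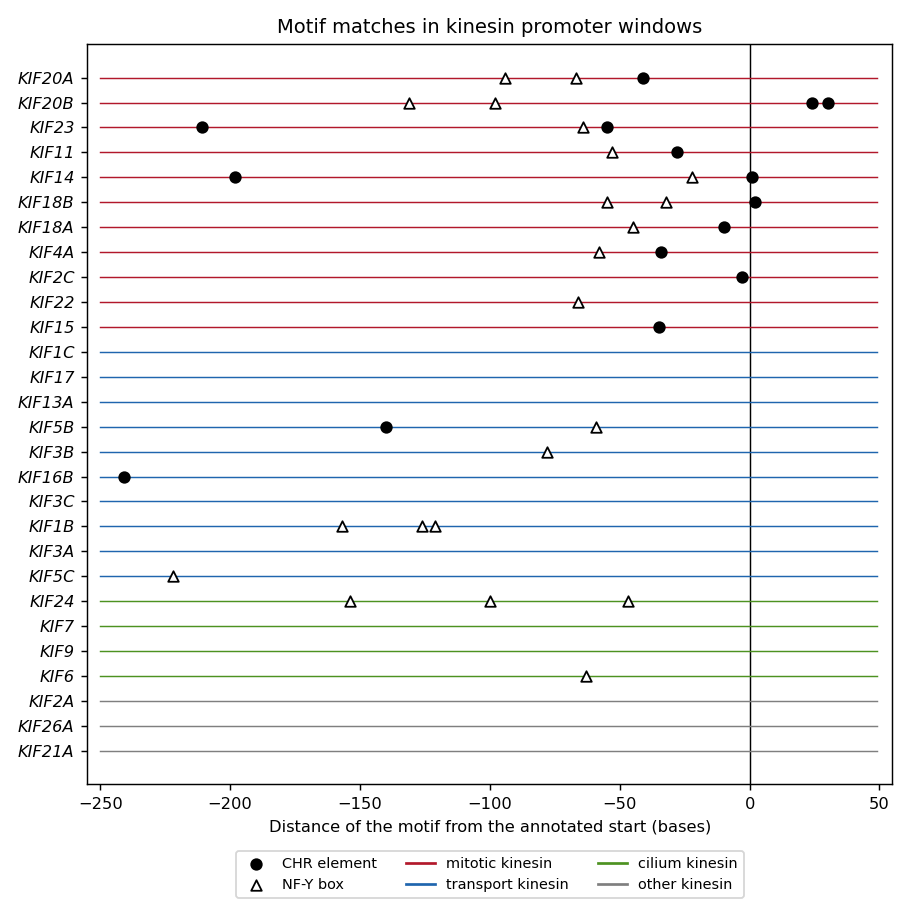
Positions of CHR letters (filled circles) and CCAAT letters, the NF-Y box (open triangles), in the promoter windows of 28 kinesin genes, with distance from the annotated start in bases on the horizontal axis and line colour giving the class. CHR circles are on 10 of 11 mitotic lines and on 2 of 10 transport lines, and all 10 of those mitotic lines have a circle near the start. Hits of genes with several windows are drawn on a single line.

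OGT inhibition was accompanied by lower transcript levels of the mitotic kinesins as a class, and by changes in both directions among the transport kinesins. All 11 mitotic kinesins fell, by 1.34-fold to 2.01-fold, whereas 4 of 12 transport kinesins fell, 2 rose and 6 were not called. A gene was called at a DESeq2 q (Benjamini-Hochberg adjusted p over all genes) of 0.05 or lower, with treated and control libraries of the same replicate number paired. Over all 33 kinesins 18 were lower and 4 higher. Of all genes tested, 46.6% were called, 24.0% as lower and 22.7% as higher, and the transport kinesins, with 33.3% lower and 16.7% higher, were closer to that background than the mitotic kinesins, with 100% lower. The median log2 fold change was -0.53 for mitotic kinesins and -0.03 for transport kinesins, beside 0.00 for all genes fitted. These libraries hold RNA from whole cultures, in which fewer cells passing through mitosis and less RNA per cell cannot be told apart.

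**Figure D2:**
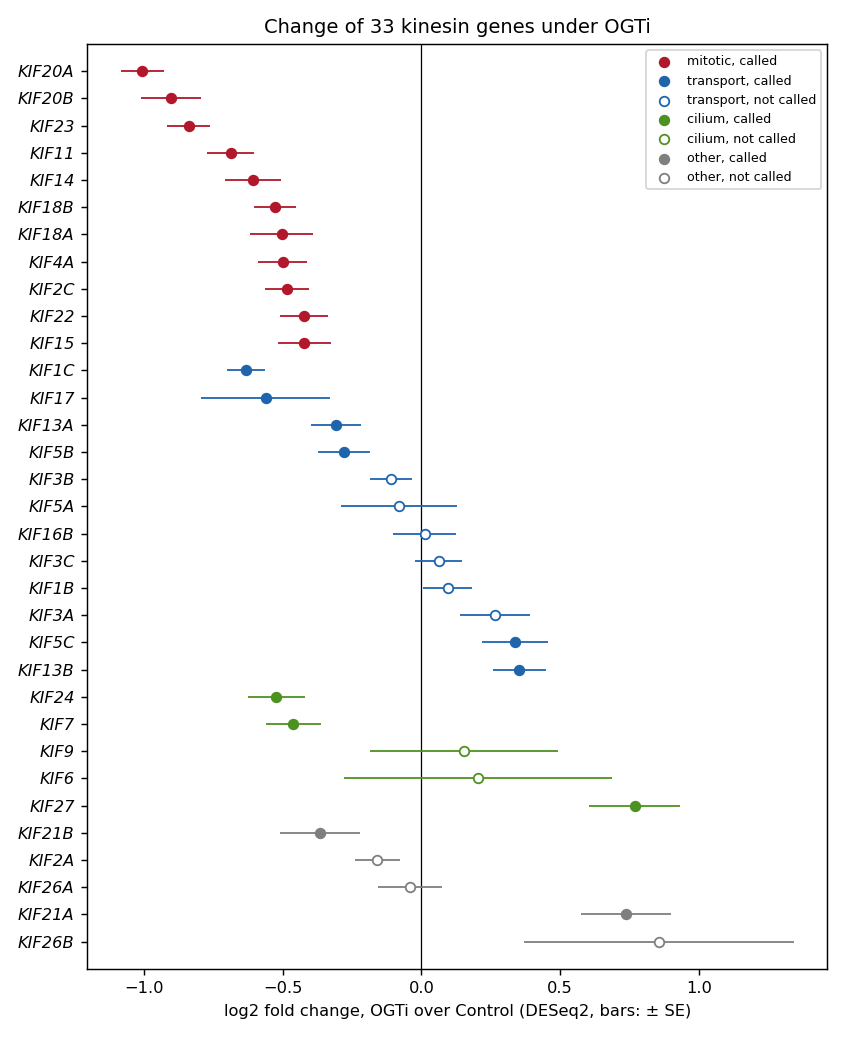
Log2 fold change of OGTi over Control for the 33 kinesin genes, from DESeq2, with bars of ± SE, filled points for called genes and colours for the class. All 11 mitotic points lie at -0.42 or lower and are filled, whereas the 12 transport points run from -0.63 to 0.35.

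The 3 largest falls among mitotic kinesins were those of the kinesin-6 family, which work at the central spindle and in cytokinesis. KIF20A, located at chr5:138178719-138187723, carries the chromosomal passenger complex to the midzone. It had 9734, 8486, 8122 and 8274 normalized counts in Control replicates 1 to 4 and 4774, 4957, 3733 and 3859 in OGTi replicates 1 to 4. No OGTi library reached any Control library, and the mean fell from 8654 ± 735 in Control to 4331 ± 624 in OGTi (SD, n = 4; log2 fold change -1.01 ± 0.08, q = 2.56e-37). KIF20A was also the kinesin with the highest level per kilobase of transcript in Control. KIF23 (chr15:69414246-69448427) forms centralspindlin with RACGAP1. It had 5517, 5198, 5508 and 5143 in the Control libraries and 3099, 3372, 2800.5 and 2711 in the OGTi libraries, again without overlap, and its log2 fold change was -0.84 ± 0.08 with q = 6.74e-25. KIF20B (chr10:89701590-89774939) acts late in cytokinesis. It had 1538, 1842, 2095 and 1843 in the Control libraries and 947, 1058, 835 and 1069.8 in the OGTi libraries, with a log2 fold change of -0.90 ± 0.11 with q = 1.24e-15. The Control libraries of KIF20B were more spread than those of KIF23, and still all lay above the OGTi libraries.

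KIF11 (chr10:92574105-92655395) and KIF15 keep the spindle bipolar. KIF11, also known as Eg5, is the tetrameric motor that slides antiparallel microtubules apart, and KIF15 can take over part of that task. KIF11 had 2863, 2709, 3027 and 2804 in the Control libraries and 1728, 1867, 1632 and 1864 in the OGTi libraries, and fell from 2851 ± 133 in Control to 1773 ± 114 in OGTi (log2 fold change -0.69 ± 0.08, q = 8.62e-15). KIF15 had 1029, 1352, 1303 and 1063 in the Control libraries and 784, 1098, 884 and 785 in the OGTi libraries. The highest OGTi library of KIF15, replicate 2, lay above Control replicates 1 and 4, but the OGTi library was lower in all 4 pairs, and its log2 fold change was -0.42 ± 0.09 with q = 3.53e-05. The falls of KIF15 and KIF22 were the smallest of the 11 and differed by less than their SEs.

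The kinesin-8 motors walk to the plus ends of microtubules and limit their length, which steadies chromosomes at the metaphase plate. KIF18A had 787, 782, 765 and 649 in the Control libraries and 607, 508, 486 and 503 in the OGTi libraries, and its log2 fold change was -0.50 ± 0.11 with q = 3.17e-05. KIF18B, which controls astral microtubules, had 3978, 4049, 3679.7 and 4185 in the Control libraries and 2806, 2891, 2739 and 2585 in the OGTi libraries, and its log2 fold change was -0.53 ± 0.08 with q = 4.07e-11. Both had separate groups, and the paralogs differed in level per kilobase, with 218 normalized counts per kb for KIF18A and 972 for KIF18B in Control. KIF2C, or MCAK, is the kinesin-13 depolymerase of centromeres that corrects wrong attachments. It had 3205, 3272, 3159 and 3040.2 in the Control libraries and 2399.8, 2625, 2090.0 and 1993 in the OGTi libraries, with a log2 fold change of -0.48 ± 0.08 with q = 1.68e-08. Its relative KIF2A, which acts in interphase as well as on the spindle and was therefore counted among the other kinesins, was lower in all 4 pairs but was not called (log2 fold change -0.16 ± 0.08, q = 0.0939).

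The chromokinesins KIF4A and KIF22 bind chromosome arms and push them towards the spindle equator, and KIF4A also acts with PRC1 at the midzone. KIF4A had 4007, 4075, 4301 and 3862 in the Control libraries and 3004, 3477, 2635 and 2458 in the OGTi libraries. Its groups did not overlap, and it fell from 4061 ± 183 in Control to 2894 ± 451 in OGTi (log2 fold change -0.50 ± 0.09, q = 1.34e-07). Reads from its near-identical intronless copy KIF4B cannot be fully separated from those of KIF4A, but the copy was assigned only 3.01 counts in all. KIF22 had 2357, 2463, 2192 and 1977 in the Control libraries and 1781, 2034, 1698 and 1260.1 in the OGTi libraries. OGTi replicate 2 of KIF22 lay above Control replicate 4, and all 4 pairs were lower in OGTi (log2 fold change -0.42 ± 0.09, q = 5.82e-06). KIF14, a kinesin-3 motor that serves cytokinesis and not transport, had 1150.5, 1442, 1755 and 1499.8 in the Control libraries and 896, 976, 969 and 959.6 in the OGTi libraries, with no overlap and a log2 fold change of -0.61 ± 0.10 with q = 1.21e-08.

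All 11 mitotic kinesins were lower in OGTi in each of the 4 pairs. In 9 of them every OGTi library lay below every Control library, an arrangement found in 19.2% of all genes fitted. The pairs differed in the size of the change, with a median log2 ratio over the 11 genes of -0.42 in replicate 1, -0.54 in replicate 2, -0.71 in replicate 3 and -0.65 in replicate 4. OGTi replicate 2 was the highest OGTi library for 9 of the 11 genes. OGTi replicates 4 and 3 were the lowest for 5 and 4 of them.

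**Figure D3:**
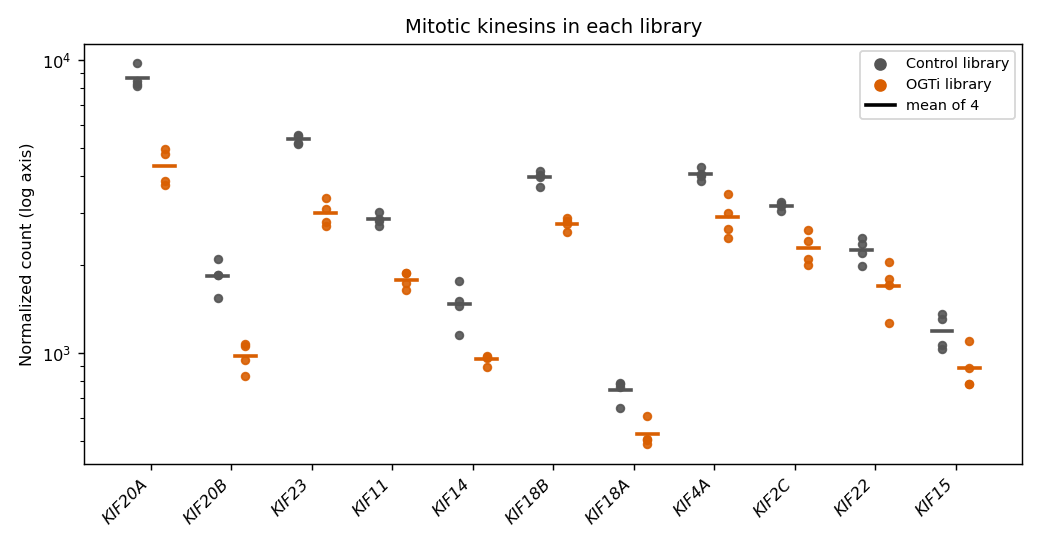
Normalized counts of the 11 mitotic kinesins in each library on a log axis, Control beside OGTi, with a point for each library and a line at the mean of 4. The groups are separate in 9 genes and overlap in KIF22 and KIF15.

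Most markers of proliferation were lower too. Of 7 such genes, 6 fell (85.7%) and 0 rose, beside 24.0% lower and 22.7% higher of all genes tested. Their summed level was 69767 to 92621 normalized counts in Control and 52363 to 57407 in OGTi. The largest part of that sum was MKI67, called narrowly and with overlapping groups (log2 fold change -0.57 ± 0.25, q = 0.0497). PCNA was not called (log2 fold change 0.09 ± 0.07, q = 0.305). MKI67 and PCNA were named after their values were seen. TOP2A, the topoisomerase that untangles chromosomes, had a log2 fold change of -0.92 ± 0.06 with q = 1.42e-44, and CCNB1, the cyclin B1 of mitotic entry, -1.0 ± 0.09 with q = 2.91e-28. CDKN1A, the p21 inhibitor of cyclin-dependent kinases, rose from 1297 ± 239.6 in Control to 4873 ± 857 in OGTi normalized counts (log2 fold change 1.91 ± 0.08, q = 1.91e-134), and MYBL2, which encodes B-MYB, fell (log2 fold change -0.89 ± 0.09, q = 1.37e-22). Over the list of 14 genes of cell cycle transcription control, 6 were lower (42.9%) and 2 higher (14.3%), and 6 were not called. Of all genes tested, 24.0% were lower and 22.7% higher. Whether these shifts account for any of the kinesin changes was not tested.

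Genes of proteins that work with mitotic kinesins on the spindle were lower as well. All 18 genes of that list fell (100%), beside 24.0% lower and 22.7% higher of all genes tested. Their median log2 fold change was -0.71. The changes with the largest test statistics were those of the kinase AURKA (log2 fold change -1.34 ± 0.08, q = 3.29e-69) and of PRC1, the midzone bundling protein that recruits KIF4A (log2 fold change -1.16 ± 0.07, q = 7.22e-62). CHR letters were in the windows of 12 of the 14 such genes that had one (85.7%), beside 27.9% of all genes. RACGAP1, the partner of KIF23 in centralspindlin, was named after its values were seen and fell from 6236 ± 345 in Control to 3844 ± 369 in OGTi (log2 fold change -0.70 ± 0.07, q = 1.44e-19). The ratio of KIF23 to RACGAP1, per kilobase, was 0.728 ± 0.044 in Control and 0.662 ± 0.0354 in OGTi, lower in all 4 pairs although the groups overlapped (unpaired exact permutation test, two-sided p = 0.0857, adjusted over 6 ratios 0.129). The paired exact permutation test gave p = 0.125, the smallest that 4 pairs allow (adjusted 0.15).

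Of 4 motors of the kinesin superfamily that carry no KIF number, 3 fell (75%) and 0 rose. Among all genes tested, 24.0% were lower and 22.7% higher. KIFC1, a minus-end motor that focuses spindle poles, fell from 4024 ± 298 in Control to 2609 ± 507 in OGTi (log2 fold change -0.64 ± 0.09, q = 9.75e-13). CENPE, the kinetochore motor that brings chromosomes to the plate, fell from 3384 ± 466 in Control to 2173 ± 173 in OGTi (log2 fold change -0.63 ± 0.10, q = 1.55e-09). KIFC3, a minus-end motor of interphase cells, fell from 4964 ± 436 in Control to 3666 ± 297 in OGTi (log2 fold change -0.44 ± 0.07, q = 8.03e-10). KIFC2 was not called (log2 fold change 0.18 ± 0.11, q = 0.19).

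The transport kinesins did not move as a block. Among them KIF1C, KIF17, KIF13A and KIF5B fell, KIF13B and KIF5C rose, and the other 6 were not called. The median over the 12 genes was above 0 in pairs 1 and 2 (0.14 and 0.05) and below 0 in pairs 3 and 4 (-0.19 and -0.08). Control replicate 3 was the highest Control library for 7 of the 12 genes and OGTi replicate 1 the highest OGTi library for 8. Only KIF1C and KIF17 of the 12 had a fall as large as the smallest fall among mitotic kinesins (-0.42).

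KIF1C (chr17:4997950-5028401) is a fast kinesin-3 motor that carries secretory vesicles and integrins, and was the transport gene with the largest fall. It had 11268, 9279.5, 11029 and 10203 normalized counts in Control replicates 1 to 4 and 7102, 6698, 6834 and 6269 in OGTi replicates 1 to 4. The groups were well separated, and the mean fell from 10445 ± 901 in Control to 6726 ± 348 in OGTi (log2 fold change -0.63 ± 0.07, q = 1.61e-18). Its relative KIF13A, a motor of recycling endosomes, had 2326, 2724, 3012 and 2712 in the Control libraries and 2266, 1947, 2228 and 2245 in the OGTi libraries. Its groups were separate but close, and its log2 fold change was -0.31 ± 0.09 with q = 0.00194, or -0.25 (q = 0.0597) without replicate 2. KIF13B, of the same family, moved the other way. It had 853, 828, 794 and 795 in the Control libraries and 1158, 1022, 1039 and 965 in the OGTi libraries, and rose from 817 ± 28.7 in Control to 1046 ± 81.2 in OGTi (log2 fold change 0.35 ± 0.09, q = 0.00069). The remaining kinesin-3 motors were not called. KIF16B, which moves early endosomes, had 670.3, 718, 947 and 786 in the Control libraries and 800.5, 775, 782 and 764 in the OGTi libraries, and a log2 fold change of 0.01 ± 0.11 with q = 0.945 (95% interval -0.21 to 0.23). KIF1B, which carries mitochondria and synaptic vesicle precursors, had 1931, 1833, 2306 and 2213 in the Control libraries and 2477, 1912, 2166 and 2287 in the OGTi libraries, and a log2 fold change of 0.09 ± 0.09 with q = 0.409. In both genes the groups overlapped.

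Conventional kinesin, kinesin-1, is built from a KIF5 heavy chain dimer and light chains of the KLC family. KIF5B is the heavy chain of most tissues and KIF5A and KIF5C are mainly neuronal. KIF5B had 7062, 7334, 9659 and 8477 in the Control libraries and 7168, 6630.4, 6229 and 6631 in the OGTi libraries. It was lower in 3 of 4 pairs and its groups overlapped, with a mean that went from 8133 ± 1188 in Control to 6665 ± 386 in OGTi (log2 fold change -0.28 ± 0.09, q = 0.00867). Without replicate 3 its log2 fold change was -0.16 (q = 0.166), and without replicate 4 it was not called either (q = 0.0785). KIF5C had 499.8, 488, 479 and 467 in the Control libraries and 629.6, 707, 512 and 604 in the OGTi libraries. It was higher in all 4 pairs without overlap (log2 fold change 0.34 ± 0.12, q = 0.0127), but was not called without replicate 1 (q = 0.0516), 2 (q = 0.152) or 4 (q = 0.0882). KIF5A had 141, 142, 126 and 115 in the Control libraries and 119.7, 148, 136 and 96.2 in the OGTi libraries, and was not called (log2 fold change -0.08 ± 0.21, q = 0.785). KIF5C stayed far below KIF5B. Per kilobase, the ratio of KIF5C to KIF5B was 0.051 ± 0.00828 in Control and 0.0776 ± 0.00881 in OGTi, higher in all 4 pairs and without overlap (unpaired exact permutation test, two-sided p = 0.0286, the smallest that 4 against 4 allows, adjusted over 6 ratios 0.129). The paired exact permutation test of this ratio gave p = 0.125, the smallest that 4 pairs allow (adjusted 0.15). Of the light chains, KLC1 was not called (log2 fold change 0.11 ± 0.08, q = 0.288) and KLC2 was called lower (log2 fold change -0.18 ± 0.07, q = 0.0383), a call that edgeR (q = 0.0508) and the fit without the replicate block (q = 0.0542) did not make.

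Kinesin-2 motors carry cargo in the cytoplasm and into the cilium. KIF3A pairs with KIF3B or KIF3C, and the adaptor KIFAP3 joins the pair to cargo. KIF3A had 724, 572, 757 and 545 in the Control libraries and 1013, 730.2, 666 and 720.2 in the OGTi libraries. It was higher in 3 of 4 pairs but its groups overlapped and it was not called by DESeq2 (log2 fold change 0.26 ± 0.12, q = 0.0687), whereas edgeR called it (q = 0.0359). KIF3B had 2273, 2492, 2834 and 2733 in the Control libraries and 2215, 2320.3, 2464 and 2557 in the OGTi libraries, and KIF3C had 2024, 2037, 2033 and 1947 in the Control libraries and 2438, 2094, 2031 and 1866 in the OGTi libraries. Neither was called, with 95% intervals of the log2 fold change of -0.26 to 0.04 and -0.10 to 0.23. KIFAP3, no motor itself, rose from 292 ± 31.2 in Control to 391 ± 28.6 in OGTi (log2 fold change 0.42 ± 0.14, q = 0.00537), a call lost without replicate 4 (q = 0.0815). The ratio of KIF3A to KIF3B per kilobase was 0.246 ± 0.0498 in Control and 0.321 ± 0.0835 in OGTi, higher in all 4 pairs (unpaired exact permutation test, two-sided p = 0.171, adjusted over 6 ratios 0.206). For this ratio the paired exact permutation test gave p = 0.125 (adjusted 0.15). KIF17, a homodimer that is best known from dendrites and cilia, was a low gene with 101, 124, 170.1 and 134 in the Control libraries and 78.6, 104, 84.6 and 88.2 in the OGTi libraries. Its fall (log2 fold change -0.56 ± 0.23, q = 0.0354) was not called once any of the replicates was left out.

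**Figure D4:**
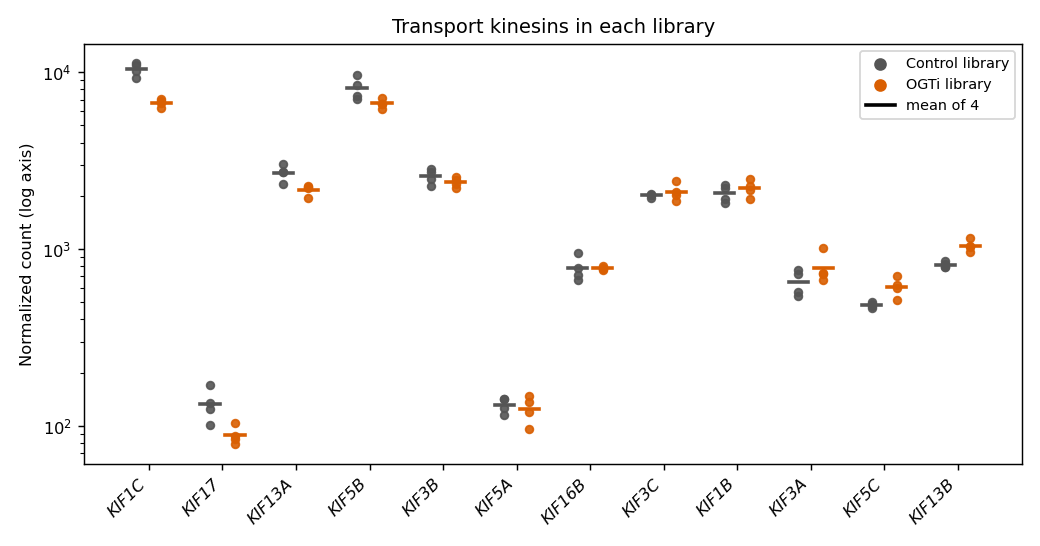
Normalized counts of the 12 transport kinesins in each library on a log axis, Control beside OGTi, with a point for each library and a line at the mean of 4. KIF1C and KIF13A have separate groups with OGTi below, KIF5C and KIF13B have separate groups with OGTi above, and the other 8 overlap. Of all genes fitted, 19.2% have separate groups with OGTi below and 18.8% with OGTi above.

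Of 12 tested kinesin partners and cargo adaptors, 3 fell and 3 rose (25% each way), shares near those of all genes tested (24.0% lower and 22.7% higher), with a median log2 fold change of 0.00. Apart from KIFAP3, the largest test statistic was that of the light chain KLC3 (log2 fold change -1.06 ± 0.35, q = 0.00688). KLC3 was a low gene, with 359 counts over all libraries, and its groups overlapped. Of 23 genes of cytoplasmic dynein and dynactin, the minus-end motor that opposes the kinesins, 12 fell (52.2%) and 2 rose (8.7%), with a median of -0.19. NDE1, a dynein regulator needed in mitosis, fell (log2 fold change -0.68 ± 0.08, q = 2.25e-17), as did the dynactin subunit DCTN6 (log2 fold change -0.97 ± 0.13, q = 4.44e-12). The 2 that rose, named after their values were seen, were DYNC1H1, the motor heavy chain of dynein, which went from 14643 ± 1988 in Control to 24522 ± 3196 in OGTi (log2 fold change 0.74 ± 0.19, q = 0.000322), and the dynactin subunit DCTN5 (log2 fold change 0.28 ± 0.09, q = 0.00615). The 13 tubulins, which form the track, had 5 lower (38.5%) and 4 higher (30.8%), beside 24.0% and 22.7% of all genes tested. TUBB fell (log2 fold change -0.73 ± 0.06, q = 4.88e-33) and TUBB3 rose (log2 fold change 1.22 ± 0.10, q = 2.47e-32).

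The 5 cilium kinesins were also divided. KIF24, a kinesin-13 that restrains cilium assembly in cycling cells, had 930.4, 833, 837 and 790.5 in the Control libraries and 690.0, 577, 575 and 525 in the OGTi libraries. KIF7, which shapes the ciliary tip in Hedgehog signalling, had 952, 1005, 1032 and 896 in the Control libraries and 643, 687, 790.3 and 705 in the OGTi libraries. Both had separate groups, with log2 fold changes of -0.52 ± 0.10 with q = 1.88e-06 and -0.46 ± 0.10 with q = 1.97e-05, and both falls lay within the range of those of the mitotic class. KIF27, the closest relative of KIF7, rose. It had 164, 170.0, 213 and 175 in the Control libraries and 344, 263, 313 and 306 in the OGTi libraries, a rise from 180.3 ± 22.0 in Control to 307 ± 33.2 in OGTi (log2 fold change 0.77 ± 0.16, q = 1.33e-05). KIF6 and KIF9 of motile cilia were low, with 22.4 and 62.1 normalized counts in Control, and were not called (log2 fold change 0.20 ± 0.48, q = 0.766 and log2 fold change 0.15 ± 0.34, q = 0.75).

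Among the other kinesins, the paralogs KIF21A and KIF21B, which slow microtubule growth, moved apart. KIF21A had 109, 234, 266 and 204 in the Control libraries and 223, 372, 353 and 375 in the OGTi libraries. It was higher in all 4 pairs, although OGTi replicate 1 lay below Control replicates 2 and 3 (log2 fold change 0.74 ± 0.16, q = 2.51e-05). KIF21B had 351, 417, 404 and 350.5 in the Control libraries and 340.0, 323, 268 and 253 in the OGTi libraries, and its fall (log2 fold change -0.37 ± 0.14, q = 0.0274) was not called without replicate 2, 3 or 4. KIF26A and KIF26B, which lack motor activity, were not called (log2 fold change -0.04 ± 0.12, q = 0.801 and log2 fold change 0.86 ± 0.49, q = 0.141). KIF26B had 9.19 to 22.6 normalized counts in Control and 26.0 to 31.1 in OGTi, so its groups did not overlap at a low count. Over the 33 kinesins all 4 OGTi libraries lay above all 4 Control libraries in 4 genes, KIF13B, KIF5C, KIF27 and KIF26B, an arrangement found in 18.8% of all genes fitted.

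Divided by transcript length, which allows levels of different genes to be compared, mitotic genes formed most of the summed level of the 33 kinesins. Among these, KIF20A led with 2796 normalized counts per kb in Control, followed by KIF23 with 1459, KIF5B with 1386 and KIF1C with 1319. The last 3 were close to each other. In OGTi KIF20A still led the 33 with 1399 normalized counts per kb, followed by KIF5B with 1136 and KIF1C with 849.5. KIFC1 and KIFC3, which are not among the 33, had 1683 and 1478 in Control, above KIF23. In OGTi both had 1091, above KIF1C. The summed level of the 11 mitotic genes was 9861 ± 310 normalized counts per kb in Control, with a range of 9459 to 10205. In OGTi it was 6136 ± 684, with a range of 5464 to 6967. That of the 12 transport genes was 4614 ± 371 in Control and 3860 ± 173 in OGTi. Of the summed level of the 33 genes, the mitotic share went from 64.7% ± 2.06 to 57.4% ± 2.60 and the transport share from 30.3% ± 1.93 to 36.3% ± 2.16. The mitotic share was lower in every OGTi library than in any Control library. Both summed levels rest on a few genes of high level, so KIF1C and KIF5B weigh most in the transport sum.

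**Figure D5:**
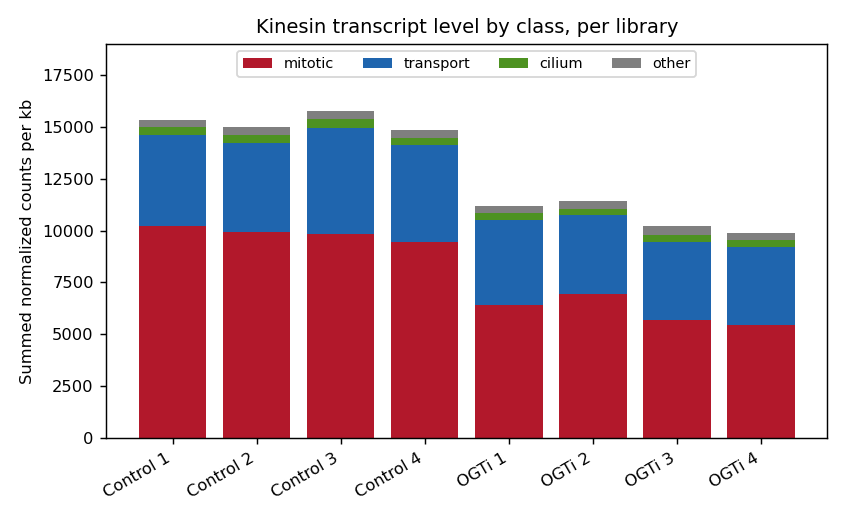
Stacked bars of the summed level of mitotic, transport, cilium and other kinesins in each of the 8 libraries, in normalized counts per kb of transcript. The mitotic sum is 9459 to 10205 in Control and 5464 to 6967 in OGTi, and the transport sum 4281 to 5122 and 3769 to 4119.

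Markers of stellate and other cell types were read in the same fit. The 10 stellate cell and myofibroblast markers summed to 210273 to 249362 normalized counts in Control and 158800 to 192120 in OGTi. Of these 10 genes, 6 were lower (60%) and 1 higher (10%), beside 24.0% lower and 22.7% higher of all genes tested. COL3A1 (log2 fold change -2.50 ± 0.11, q = 3.36e-112) and COL1A2 (log2 fold change -1.39 ± 0.10, q = 2.77e-40) had the largest test statistics. Of the 6 hepatocyte markers 1 was tested, TF, which had 32 counts in all and was not called (log2 fold change 2.24 ± 1.28, q = 0.142). The 4 tested macrophage and leukocyte markers summed to 2503 to 4090 in Control and 5628 to 9405 in OGTi, nearly all of it the lysosomal gene CD68 (log2 fold change 1.25 ± 0.08, q = 1.61e-51), whereas the leukocyte gene PTPRC had 41 counts in all. The 3 tested endothelial markers summed to at most 91.1 normalized counts, of which CDH5 (log2 fold change -3.31 ± 0.62, q = 5.83e-07) and VWF (log2 fold change -0.40 ± 0.47, q = 0.516) had the largest test statistics. Of 4 cholangiocyte markers 2 were tested, KRT7 being lower (log2 fold change -1.05 ± 0.26, q = 0.000229) and SOX9 higher (log2 fold change 0.35 ± 0.11, q = 0.00715). The part of these marker shifts in the kinesin values was not tested.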

How the data were processed

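The data were RNA-seq of polyadenylated RNA from 8 LX-2 cultures. Per the labels and the study's methods, the authors made strand-specific DNBSEQ libraries, aligned paired reads to hg38 with Bowtie2 2.3.5.1 and counted genes of annotation release 84 with RSEM 1.3.1. The authors deposited expected counts (estimated counts, in which RSEM divides ambiguous reads between genes), not scaled for depth, and 12.9% to 16.3% of values per library were fractional. A deposited DESeq2 1.36.0 comparison table, with fold changes and p-values, was not used.

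Samples were grouped by title, since the treatment of Control replicate 4 is misspelled in its label. Expected counts were rounded, genes with totals under 10 were dropped, and 14895 genes were fitted in R 4.3.3 with DESeq2 1.42.0 (Wald test, median-of-ratios size factors of 0.870 to 1.09, replicate number as a block, no shrinkage, independent filtering). Adjustment over 14028 genes gave q. Pairing follows the study's methods. Deviations from group means correlated between same-numbered libraries with r of 0.359, 0.267, 0.113 and 0.241 for replicates 1 to 4 across 12260 genes, which are not independent, while Control replicate 3 was closer to OGTi replicate 4 (0.27). Normalized counts are counts over the size factor, ± SD with n = 4, and fold changes carry their SE. Levels per kb used transcript lengths and positions from GENCODE 44 (GRCh38), matched by symbol. Promoter windows used RefSeq starts instead, which can lie inside the GENCODE span of a gene, as for KIF11 and KIF20A. Ratios of genes were compared with unpaired two-sided exact permutation tests and with paired ones, which over 4 pairs cannot go below p = 0.125.

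Members and lists were chosen with earlier results of these data known. Values in every library are given for mitotic kinesins, for transport kinesins averaging at least 100 normalized counts, and for called kinesins of other classes at that level. CENPE, KIFC1 to KIFC3, KLC1, KLC2, KIFAP3 and the 2 largest Wald statistics of every other list were also named. DYNC1H1, DCTN5, KLC3, RACGAP1, MKI67 and PCNA were named after their values were seen. The fit was tested on simulated counts, drawn with the same dispersion for every gene and without replicate effects. That test does not show how often calls in these data are right. Alternatives were edgeR 4.0.16, other size factors and filters, no block, each replicate left out, and KIF2A counted as mitotic. Protein sequences were not analysed here.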

Additional observations from a re-analysis of the deposited data

Results flagged for a closer look

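In 4 of 66 groups of 4 libraries over the 33 kinesins, a single library stood apart from the other 3 by Dixon's criterion, and chance alone would mark about 1 in 20 groups, or 3.3. For KIF18A, Control replicate 4 had 649 normalized counts, below 765 to 787 in the other Control libraries. It still lay above every OGTi library. For KIF21A, OGTi replicate 1 had 223, below 353 to 375 in the other OGTi libraries, and it is the library that makes the groups of KIF21A overlap. For KIF3C, Control replicate 4 had 1947, below 2024 to 2037. For KIF13A, OGTi replicate 2 had 1947, below 2228 to 2266, and without replicate 2 the gene was no longer called.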

How the results depend on the processing

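All 11 mitotic kinesins were called lower under edgeR, without the replicate block, with TMM size factors, under both other filters and without each replicate. With KIF2A added to the class the count called lower stayed at 11, as KIF2A itself was not called (q = 0.0939). The enlarged class was then not called lower as a whole. Of the 360 comparisons of a result with an alternative, 333 kept their direction and their side of the threshold. Without the replicate block, the counts of called kinesins were as in the paired fit (18 lower), and KLC2 was the one gene to lose its call (q = 0.0542). edgeR also left out KLC2 and called KIF3A (log2 fold change 0.27, q = 0.0359), which was also called without replicate 3 (0.41, q = 0.00517). Leaving out replicates moved the smaller counts. Transport kinesins called lower were 2 to 3 and called higher 1 to 3, and other kinesins called lower were 0 to 1. KIF17 was not called without any one of replicates 1 to 4 (q = 0.0646, 0.0599, 0.254 and 0.149). KIF21B was lost without 2, 3 or 4 (q = 0.115, 0.18 and 0.15), KIF13A without 2, KIF5B without 3 or 4, KIF5C without 1, 2 or 4, KLC2 without 1 or 4 (q = 0.153 and 0.279) and KIFAP3 without 4. These fits have fewer samples. Signs turned only among genes that were not called, with leave-one-out ranges of the log2 fold change of -0.0193 to 0.54 for KIF6, -0.0540 to 0.55 for KIF9, -0.10 to 0.0368 for KIF26A, -0.0680 to 0.11 for KIF16B and -0.00595 to 0.10 for KIF3C. The median of the transport kinesins lay between -0.0656 and 0.00275 over these fits. Depth limits the low genes, as KIF6, KIF9 and KIF26B had SEs of 0.34 to 0.49.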
